A study of Danio rerio with 24 samples.

Results

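The estrogen receptor genes of zebrafish, *esr1*, *esr2a* and *esr2b*, and the vitellogenin genes *vtg1* to *vtg7* were followed in liver RNA of male fish. These 10 genes were found by symbol among 32105 Ensembl and 31084 RefSeq genes of the zebrafish genome GRCz10, and no gene was left out for low counts. RNA sequencing gave raw read counts per gene in 4 groups of 6 libraries, and each library held RNA pooled from male livers of 1 tank, so that the tank was the replicate. All fish were of the wildtype AB strain. F1 high ARA fish were the progeny of parents on a diet rich in arachidonic acid (ARA), an n-6 polyunsaturated fatty acid, and F1 control fish were the progeny of parents on the low-ARA control diet. Both F1 groups ate the control diet themselves and were sampled at 140 to 142 days post fertilization (DPF). F0 high ARA fish and F0 control fish were the parental generation, which received these diets from 27 DPF, were mated at 97 DPF and were sampled at 154 to 156 DPF. F1 and F0 fish thus differed in age as well as in generation, which cannot be told apart here. F1 high ARA and F0 high ARA fish also differed in the diet they ate themselves.

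Estrogen receptors are nuclear receptors that bind estradiol and then regulate genes that carry estrogen response elements. *esr1* encodes estrogen receptor alpha, and *esr2a* and *esr2b* encode a pair of beta-type receptors that arose in the fish lineage. In egg-laying females estradiol from the ovary acts on hepatocytes to drive transcription of vitellogenins, large lipid-carrying yolk precursors that are secreted to the blood and taken up by growing oocytes. The liver *esr1* gene is itself induced by estrogen in fish. Males carry the same genes and normally express little vitellogenin, which is why vitellogenin in males is widely used as a marker of estrogen exposure.

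Total counts on Ensembl genes were 8636978 to 11800367 per library in F1 high ARA, 5144880 to 8493413 in F1 control, 5973529 to 11646711 in F0 high ARA and 5608588 to 15659321 in F0 control. All F1 high ARA totals were above all F1 control totals. All 14 hepatocyte markers had counts in every group, and their summed level was 122096 to 164816 CPM (read counts scaled to a common library size with TMM factors) in F1 high ARA, 148967 to 177422 CPM in F1 control, 125831 to 159576 CPM in F0 high ARA livers and 127506 to 178512 CPM in F0 control livers. The ovary and oocyte list summed to 84.5 CPM in F1 control library 11, where 13 of its 14 measured markers had counts in the group and *figla* was at 0. In the other 23 libraries the same list stayed between 2.91 and 6.35 CPM, so 1 F1 control library stood apart. In bulk RNA, a smaller share of cells of a type and less RNA per cell cannot be told apart.

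The receptor genes lie on chromosomes 20 and 13, and their models share no exon base with another gene. *esr1* (ENSDARG00000004111) spans chromosome 20, 26460666 to 26484285, on the minus strand in 9 blocks of merged exons. *esr2a* (ENSDARG00000016454) spans chromosome 20, 21683966 to 21735986, on the plus strand in 11 exon blocks. *esr2b* (ENSDARG00000034181) spans chromosome 13, 36896711 to 36946668, on the plus strand in 11 exon blocks. All coordinates are those of the Ensembl models in GRCz10.

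Of the vitellogenins, *vtg3* (ENSDARG00000016448), which encodes the phosvitin-less form, lies alone on chromosome 11, 7349657 to 7370849. The other 6 lie together in a cluster of paralogs on the minus strand of chromosome 22. In RefSeq they are separate genes with no shared exon base, *vtg1* at 24703536 to 24710579, *vtg5* at 24723477 to 24730162, *vtg4* at 24756392 to 24763881, *vtg6* at 24783772 to 24790461, *vtg7* at 24823603 to 24830421 and *vtg2* at 24842066 to 24853200. In Ensembl the models of *vtg4*, *vtg5* and *vtg7* run far across the cluster, and *vtg4* (ENSDARG00000078429) spans 24703538 to 24830407. There 38.75% of the exon bases of *vtg4*, 25.35% of *vtg1*, 19.92% of *vtg7*, 17.55% of *vtg5* and 9.39% of *vtg6* were shared with another gene, and those of *vtg2* and *vtg3* were not shared. Reads on a shared base, and reads that mapped equally well to several paralogs, were not counted for any gene, so the counts of the cluster are uncertain in both annotations.

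The choice of annotation changed the counts of *vtg5*, *esr2a* and, by less, *esr2b* in all 24 libraries. *vtg5* had 5607 reads over the 24 libraries in RefSeq and 4214 in Ensembl, a ratio of 1.33. All but 1 base of its RefSeq exons lay within its Ensembl exons. However, 786 of its Ensembl exon bases (17.55%) were shared with *vtg4* or *vtg7*, and reads on shared bases were not counted. How much of the gap came from these bases was not tested. *esr2a* had 2912 reads in RefSeq and 2039 in Ensembl, a ratio of 1.43, and its RefSeq model held 1308 more exon bases. *esr1* had 818 and 817 reads, with equal counts in 23 of 24 libraries, and *esr2b* had 16107 and 15762. *vtg1* had 26 reads in RefSeq and 19 in Ensembl, a ratio of 1.37 that rests on 7 reads. *vtg3* and *vtg6* differed by 1 read each, and the counts of *vtg2*, *vtg4* and *vtg7* were equal in all 24 libraries. The values below are Ensembl values unless RefSeq is named.

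To set genes beside each other, CPM was divided by exon length in kilobases on the RefSeq models, which do not overlap. Reads that mapped equally well to several vitellogenin paralogs were still not counted, so vitellogenin levels may be too low beside those of the receptors. *esr2b* stood highest, with median levels of 21.7 CPM per kb in F1 high ARA, 20.5 in F1 control, 24 in F0 high ARA and 25.5 in F0 control, and was above each of *vtg5*, *esr2a*, *esr1* and *vtg4* in 24 of 24 libraries. *vtg5* had medians of 12.8 CPM per kb in F1 high ARA, 5.43 in F1 control, 2.2 in F0 high ARA and 3.8 in F0 control, and *esr2a* had medians of 3.17, 3.81, 2.83 and 3.95 in the same groups. These neighbours changed places, since *vtg5* was above *esr2a* in 6 of 6 F1 high ARA and 5 of 6 F1 control libraries but in 2 of 6 F0 high ARA and 3 of 6 F0 control libraries. *esr1* followed with medians of 1.69, 0.505, 0.552 and 0.933 CPM per kb, below *vtg5* in all 24 libraries and below *esr2a* in 22. *vtg4* stood below all 4 of these genes in all 24 libraries, and its highest group median was 0.241 CPM per kb in F1 control.

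**Figure D1:**
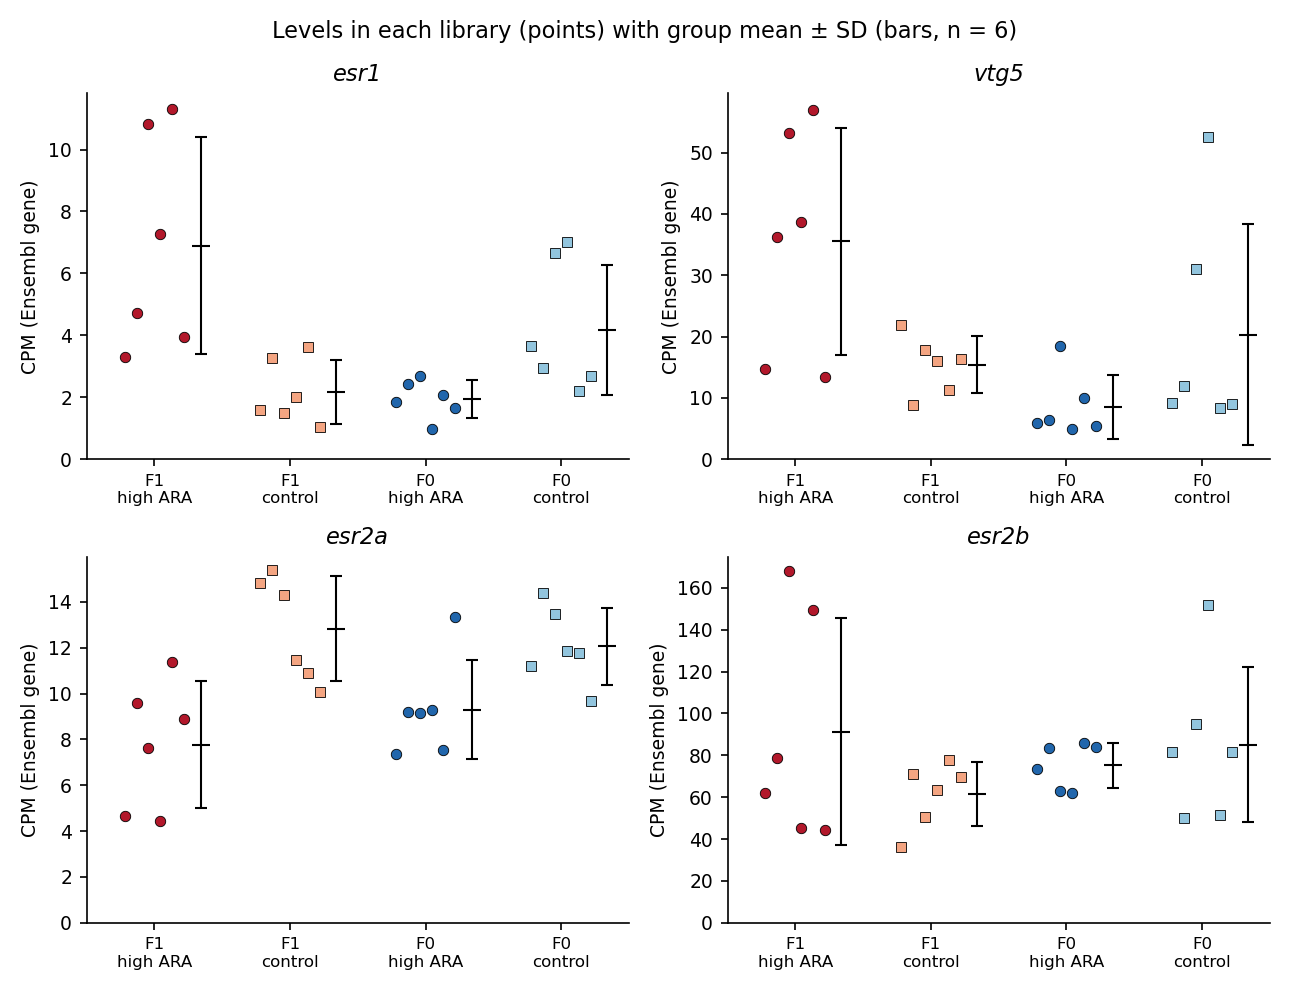
CPM of *esr1*, *esr2a*, *esr2b* and *vtg5* on Ensembl genes, 1 panel per gene and 1 point per library, with the group mean and SD (n = 6). *esr1* lies between 3.31 and 11.3 CPM in F1 high ARA against 1.04 and 3.64 CPM in F1 control, and the highest *vtg5* libraries are in F1 high ARA and F0 control.

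The first comparison asked whether the parental diet was followed by a difference between progeny that ate the same feed. *esr1* was 3.22-fold higher in F1 high ARA than in F1 control livers and was the only member that passed the test. *vtg5* was 2.30-fold higher and *esr2b* 1.48-fold higher, and *esr2a* had a fold change of 0.607, and none of these passed. A gene was called when edgeR's quasi-likelihood test gave a Benjamini-Hochberg adjusted p below 0.05 on the Ensembl and on the RefSeq counts with the same sign, and 1.51% of the 10902 genes tested were called. Of the 4 members with enough counts to be tested, 1 was thus called, and it was among the 0.752% of genes called higher.

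*esr1* had a lowest, median and highest level of 3.31, 6.0 and 11.3 CPM (29 to 126 reads) in F1 high ARA, against 1.04, 1.79 and 3.64 CPM (7 to 19 reads) in F1 control. Of the 6 F1 high ARA libraries, 5 lay above every F1 control library, and the lowest, library 13, lay below the highest control, library 11, which is the library with ovary markers. The mean was 6.90 ± 3.5 CPM in F1 high ARA against 2.17 ± 1.04 CPM in F1 control (mean ± SD, 6 libraries each). On the log2 scale the fold change was 1.69 (SE 0.376), with an adjusted p of 0.0369 on Ensembl and 0.0359 on RefSeq counts by edgeR's quasi-likelihood test, and a two-sided exact permutation test of log2(CPM + 0.5) gave p = 0.00433. The call stood close to the threshold. It held without F1 high ARA library 13, 14 or 18 and without F1 control library 11, where it stood at 1.87 with adjusted p of 0.0436 and 0.0466. It was lost without F1 high ARA library 15, 16 or 17 and without F1 control library 7, 8, 9, 10 or 12, where the log2 fold change stayed between 1.5 and 1.85 and the larger adjusted p lay between 0.0562 and 0.0848. It was also lost with no filter on low counts (adjusted p 0.0570) and with the enterocyte marker score in the model (adjusted p 0.0672), where the summed enterocyte list was 5578 to 7148 CPM in F1 high ARA, against 5627 to 8127 CPM in F1 control, with 14 of 15 markers detected and *anpepa* at 0 in both. With library totals alone as the scale, the median of all genes shifted by 0.12 on the log2 scale and *esr1* had a log2 fold change of 1.83, still higher in F1 high ARA.

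*vtg5* had 13.4, 37.5 and 56.9 CPM as the lowest, median and highest in F1 high ARA (129 to 635 reads), against 8.90, 16.1 and 21.9 CPM in F1 control (52 to 128 reads). Of the 6 F1 high ARA libraries, 4 lay above every control, while libraries 13 and 18, at 14.7 and 13.4 CPM, lay within the control range. The spread was also wider, with a mean of 35.5 ± 18.5 CPM in F1 high ARA, against 15.4 ± 4.66 CPM in F1 control (mean ± SD, 6 libraries each). The log2 fold change of 1.20 (SE 0.375) had an unadjusted p of 0.00764 and adjusted p of 0.115 and 0.111 in edgeR's quasi-likelihood test on the 2 annotations, with an exact permutation p of 0.0368, so it did not pass over all genes. Without F1 high ARA library 18 the adjusted p was 0.0467 and 0.0451 (log2 fold change 1.37), and DESeq2's Wald test on all libraries gave adjusted p of 0.0167 and 0.0159.

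*esr2b* ranged from 44.3 to 168 CPM in F1 high ARA (median 70.3) and from 36.4 to 77.9 CPM in F1 control (median 66.5). In 3 of 6 F1 high ARA libraries the level lay above every control, at 168 CPM in library 15, 149 CPM in library 17 and 78.8 CPM in library 14, and the other 3 lay within the control range. The mean was 91.3 ± 54.1 CPM in F1 high ARA, against 61.5 ± 15.4 CPM in F1 control. Libraries 15 and 17 were also the highest of the F1 high ARA group for *vtg5*, at 53.2 and 56.9 CPM, and for *esr1*, at 10.8 and 11.3 CPM. The log2 fold change of *esr2b* was 0.57 (SE 0.352) with an adjusted p of 0.401 by edgeR's quasi-likelihood test. On RefSeq counts 2 of 6 F1 high ARA libraries lay above every F1 control library for *esr2b*. Library 14 had 87.1 CPM there, against 88.1 CPM in F1 control library 11.

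*esr2a* had 4.45, 8.26 and 11.4 CPM as the lowest, median and highest in F1 high ARA, against 10.1, 12.9 and 15.4 CPM in F1 control. In 5 of 6 F1 high ARA libraries the level lay below every control. The log2 fold change was −0.72 (SE 0.217) with an adjusted p of 0.0923 in edgeR's quasi-likelihood test, and the exact permutation p was 0.00649. On RefSeq counts the same difference was smaller, with a mean of 13.8 ± 4.73 CPM in F1 high ARA, against 17.2 ± 1.86 CPM in F1 control, a log2 fold change of −0.32, an adjusted p of 0.378 by edgeR's quasi-likelihood test and an exact permutation p of 0.128. The size of the *esr2a* difference therefore depended on which exons were counted.

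The reads that RefSeq counted for *esr2a* and Ensembl did not were taken apart after this was seen. The 1308 RefSeq-only exon bases comprised 1085 bases beyond the Ensembl end of the gene, at chromosome 20, 21735987 to 21737071, 114 bases before its start and 109 bases inside it, and no other Ensembl gene had an exon there. These reads made up 39.5 ± 3.39% of the RefSeq reads of *esr2a* in F1 high ARA (SD, n = 6, 35.2 to 44.9%) and 19.9 ± 7.81% in F1 control (11.8 to 32%). The share was looked at because the annotations differed in this comparison, and a larger share in F1 high ARA follows from that difference, so it is given as a description with no test. In the parents the share was 29.4 ± 9.66% in F0 high ARA and 26.9 ± 5.14% in F0 control. As a level, these reads averaged 5.40 ± 1.84 CPM in F1 high ARA, against 3.37 ± 1.18 CPM in F1 control, a difference of 0.60 in mean log2(CPM + 0.5) beside the log2 fold change of −0.72 of the Ensembl count.

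**Figure D2:**
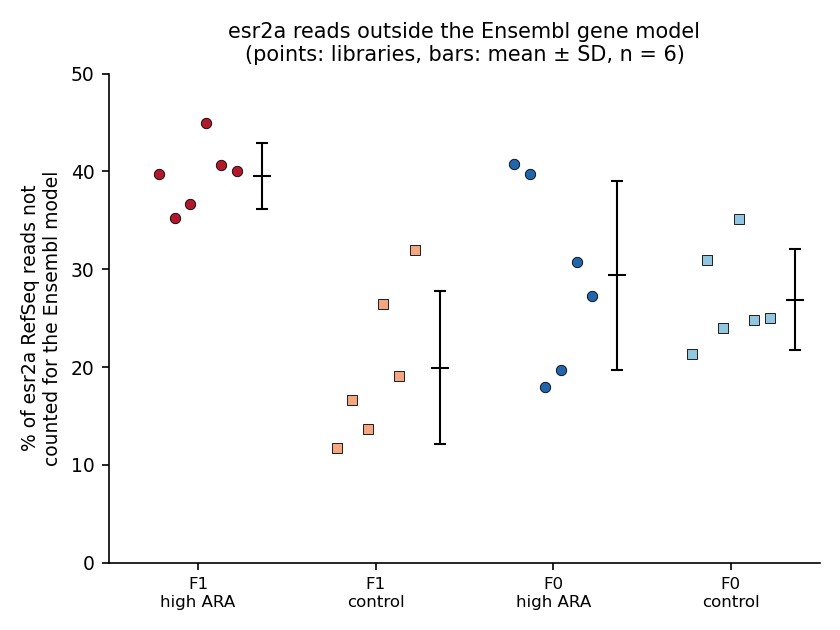
Share of each library's RefSeq *esr2a* reads, in percent, that fell outside the Ensembl gene model, by group, with mean and SD (n = 6). The F1 high ARA libraries lie between 35.2 and 44.9% and the F1 control libraries between 11.8 and 32%, a share looked at because the annotations differed in this comparison.

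The second comparison asked what the diet itself was followed by in the parents. No member passed the test between F0 high ARA and F0 control livers, and neither did any other of the 11426 genes tested with edgeR's quasi-likelihood test in both annotations (0.00% called). At an unadjusted p below 0.05, 708 genes (6.20%) passed in both, and DESeq2 called 24 genes, with no member among them. *esr1* had 0.975, 1.96 and 2.68 CPM as the lowest, median and highest in F0 high ARA, against 2.19, 3.30 and 7.00 CPM in F0 control. In 4 of 6 F0 high ARA libraries the level lay below every F0 control library. This was a log2 fold change of −1.07 (SE 0.321), for which the unadjusted p was 0.00491, with an adjusted p of 0.481 and 0.459 in edgeR's quasi-likelihood test on the 2 annotations, and an exact permutation p of 0.0108.

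In the same parents *vtg5* had 4.87, 6.19 and 18.4 CPM as the lowest, median and highest in F0 high ARA, against 8.37, 10.5 and 52.6 CPM in F0 control. The F0 control group was uneven, since libraries 9 and 10 reached 31.0 and 52.6 CPM and the other 4 lay between 8.37 and 11.9 CPM. The log2 fold change was −1.22 (SE 0.554) with an adjusted p of 0.668 by edgeR's quasi-likelihood test, and −0.65 without F0 control library 10. That library was also the highest of its group for *esr1* (7.00 CPM) and *esr2b* (152 CPM). *esr2a* averaged 9.30 ± 2.17 CPM in F0 high ARA livers and 12.1 ± 1.67 CPM in F0 control livers. In 5 of 6 F0 high ARA libraries its level lay below every F0 control library, and in 4 of 6 on RefSeq counts. Its log2 fold change of −0.38 had an unadjusted p of 0.0245 (RefSeq 0.0459) and an adjusted p of 0.615 by edgeR's quasi-likelihood test. The exact permutation p was 0.0303, or 0.0693 on RefSeq counts. *esr2b* averaged 75.3 ± 10.8 CPM in F0 high ARA livers and 85.1 ± 37.2 CPM in F0 control livers, with a log2 fold change of −0.17 (adjusted p 0.912 by edgeR's quasi-likelihood test) that turned to 0.078 without F0 control library 10.

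The third comparison set F1 high ARA against F0 high ARA livers, and shares the F1 high ARA libraries with the first. F1 high ARA fish ate the control diet and F0 high ARA fish the high ARA diet. Own diet, generation and age therefore cannot be told apart in this comparison. *esr1* was 3.5-fold and *vtg5* 4.08-fold higher in F1 high ARA than in F0 high ARA livers, and both passed the test. Of the 11359 genes tested, 16% were called, and 8.28% were called higher, so that calls were common between these groups. *esr1*, at 3.31 to 11.3 CPM in F1 high ARA, against 0.975 to 2.68 CPM in F0 high ARA, did not overlap between the groups, as was the case for 7.29% of genes. Its log2 fold change was 1.81 (SE 0.341) with adjusted p of 0.00377 and 0.00340 in edgeR's quasi-likelihood test on the 2 annotations and an exact permutation p of 0.00216, the smallest possible.

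*vtg5* averaged 35.5 ± 18.5 CPM in F1 high ARA, against 8.51 ± 5.18 CPM in F0 high ARA livers (mean ± SD, 6 libraries each). In 4 of 6 F1 high ARA libraries the level lay above every F0 high ARA library, and F0 high ARA library 15, at 18.4 CPM, reached into the F1 range. The log2 fold change was 2.03 (SE 0.451) with adjusted p of 0.0121 and 0.0133 in edgeR's quasi-likelihood test and an exact permutation p of 0.00649. Both calls held in all 12 fits that left out 1 library, with larger adjusted p of at most 0.0110 for *esr1* and 0.0306 for *vtg5*. *esr2a* (log2 fold change −0.26, and −0.046 on RefSeq counts) and *esr2b* (0.28) did not pass, with adjusted p of 0.453 and 0.582 by edgeR's quasi-likelihood test.

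The fourth comparison set F1 control against F0 control livers, 2 groups on the control diet, of which the first had parents on that diet as well. No member passed the test, where 1.83% of 10940 genes were called by edgeR's quasi-likelihood test. *esr1* averaged 2.17 ± 1.04 CPM in F1 control and 4.19 ± 2.1 CPM in F0 control (mean ± SD, 6 libraries each), which gave −0.96 on the log2 scale (SE 0.359), an unadjusted p of 0.0176, an adjusted p of 0.173 and an exact permutation p of 0.0498. *vtg5* averaged 15.4 ± 4.66 CPM in F1 control and 20.3 ± 18 CPM in F0 control, and its log2 fold change of −0.40 (SE 0.494) turned to 0.16 without F0 control library 10. *esr2b* had a log2 fold change of −0.48 (SE 0.264) and *esr2a* of 0.073, or −0.062 on RefSeq counts, and neither passed.

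**Figure D3:**
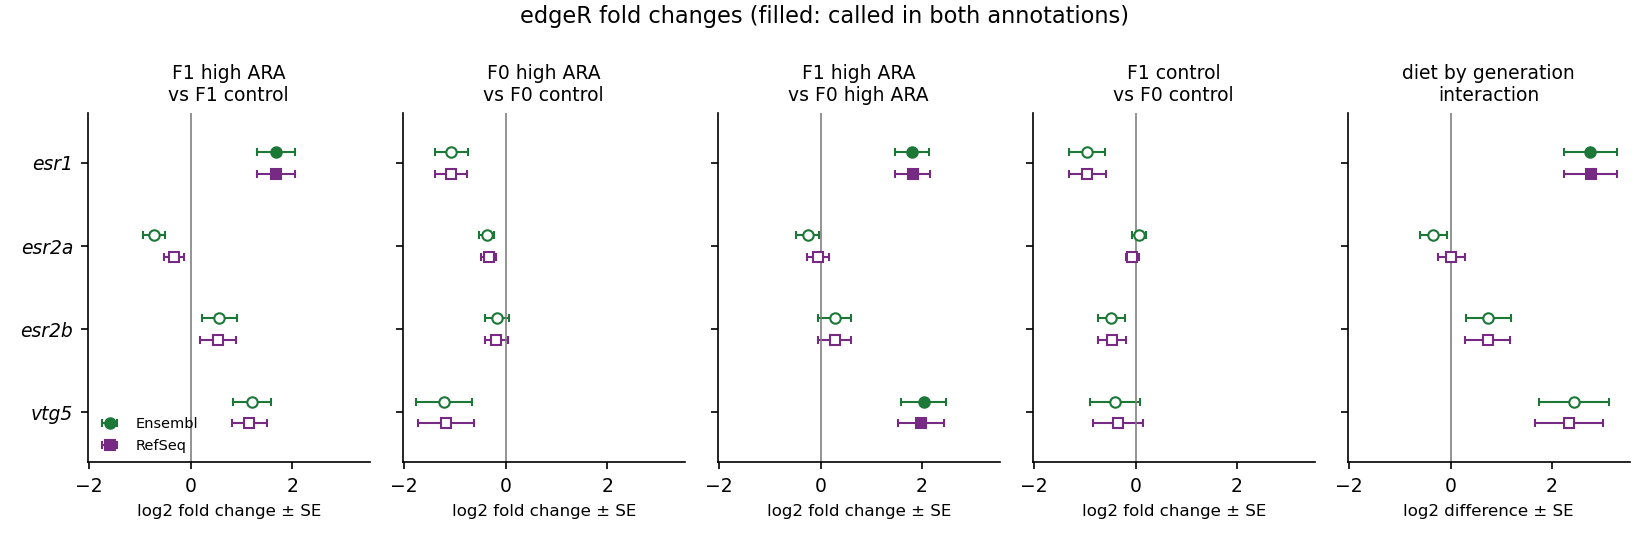
Log2 fold changes with SE of *esr1*, *esr2a*, *esr2b* and *vtg5* in the 4 comparisons and in the interaction, on Ensembl and RefSeq counts. *esr1* stands at 1.69 between F1 high ARA and F1 control and at −1.07 between F0 high ARA and F0 control, and *esr2a* is the member whose 2 annotations differ in the F1 diet comparison.

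Whether the diet difference itself differed between generations was tested as an interaction in 1 model of all 24 libraries. In F0 the diet was the fish's own, and in F1 it was that of the parents. Own against parental diet, generation and age therefore cannot be told apart in the interaction. The *esr1* difference between high ARA and control was 2.76 higher on the log2 scale in F1 than in F0 (SE 0.520), with adjusted p of 0.0418 and 0.0383 in edgeR's quasi-likelihood test on the 2 annotations. Of the 11192 genes tested, 0.116%, or 13 genes, were called for this interaction, and 0.0715% were called higher, *esr1* among them. The *esr1* call was lost with the replicate number as a block (larger adjusted p 0.0721 by edgeR's quasi-likelihood test). It held in 11 of the 24 fits that left out 1 library. It was lost without F1 high ARA library 14, 15 or 17, F1 control library 8, 9, 10 or 12, F0 high ARA library 13, 16, 17 or 18, or F0 control library 9 or 10, with a log2 value between 2.53 and 2.92 and a largest adjusted p of 0.0872. *vtg5* had an interaction of 2.43 (SE 0.688) in the same direction, with adjusted p of 0.161 and 0.166 by edgeR's quasi-likelihood test and of 0.0215 and 0.0279 by DESeq2. *esr2b* (0.75, adjusted p 0.482 by edgeR's quasi-likelihood test) and *esr2a* (−0.34, or 0.015 on RefSeq counts) did not pass.

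The other 6 vitellogenins were at or near the limit of counting. Over all 24 libraries together, Ensembl counts were 105 for *vtg4*, 32 for *vtg6*, 24 each for *vtg2* and *vtg7*, and 19 each for *vtg1* and *vtg3*, beside 4214 for *vtg5*. None had a mean count of 10, so none entered the test with a filter on low counts. *vtg5* held 97.3% of all counted vitellogenin reads in F1 high ARA, 92.4% in F1 control, 94.4% in F0 high ARA and 96.1% in F0 control on RefSeq counts, and between 86.0 and 98.3% in single libraries. Over all libraries this share was 96.0% (95% exact Clopper-Pearson interval 95.5 to 96.5%, counting error only). Reads that mapped equally well to several paralogs were not counted, so neither the shares nor the low counts of the other paralogs cover them.

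*vtg4* had counts in 23 of 24 libraries, at most 13 in any library. Its reads in the 6 libraries of a group summed to 40 in F1 high ARA, 30 in F1 control, 12 in F0 high ARA and 23 in F0 control. Its levels were 0.152 to 1.18 CPM in F1 high ARA, 0.342 to 1.19 CPM in F1 control, 0 to 0.692 CPM in F0 high ARA livers and 0.0997 to 0.717 CPM in F0 control livers. All 4 groups overlapped, and exact permutation p was 0.416 for F1 high ARA against F1 control, 0.348 for F0 high ARA against F0 control, 0.0714 for F1 high ARA against F0 high ARA and 0.0541 for F1 control against F0 control.

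*vtg6* had counts in 15 libraries, *vtg2* and *vtg3* in 13 each, *vtg1* in 12 and *vtg7* in 11. Apart from 9 reads of *vtg6* in F0 control library 10 and 7 reads of *vtg7* in F1 high ARA library 15, no library held more than 4 reads of any of these genes. A count of 0 allowed up to 3 reads, which was 0.192 to 0.583 CPM on raw library totals, before TMM scaling. For all 6 sparse genes, edgeR's quasi-likelihood test without a filter gave no adjusted p below 0.05 in any comparison, and the smallest unadjusted p on Ensembl counts was 0.0370, for *vtg4* in F1 against F0 livers of the high ARA groups.

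Summed over the 6 sparse genes, a sum formed after the data were seen, the level was 1.24 ± 0.652 CPM in F1 high ARA, 1.66 ± 0.744 CPM in F1 control, 0.697 ± 0.322 CPM in F0 high ARA livers and 1.04 ± 0.532 CPM in F0 control livers (mean ± SD, 6 libraries each). Differences were not detectable at this depth, with exact permutation p of 0.368 for F1 high ARA against F1 control, 0.238 for F0 high ARA against F0 control, 0.106 for F1 high ARA against F0 high ARA and 0.158 for F1 control against F0 control. F1 control library 11, with its ovary markers at 84.5 CPM, held 5 reads of these 6 genes and 11.3 CPM of *vtg5*, both within the range of its group.

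**Figure D4:**
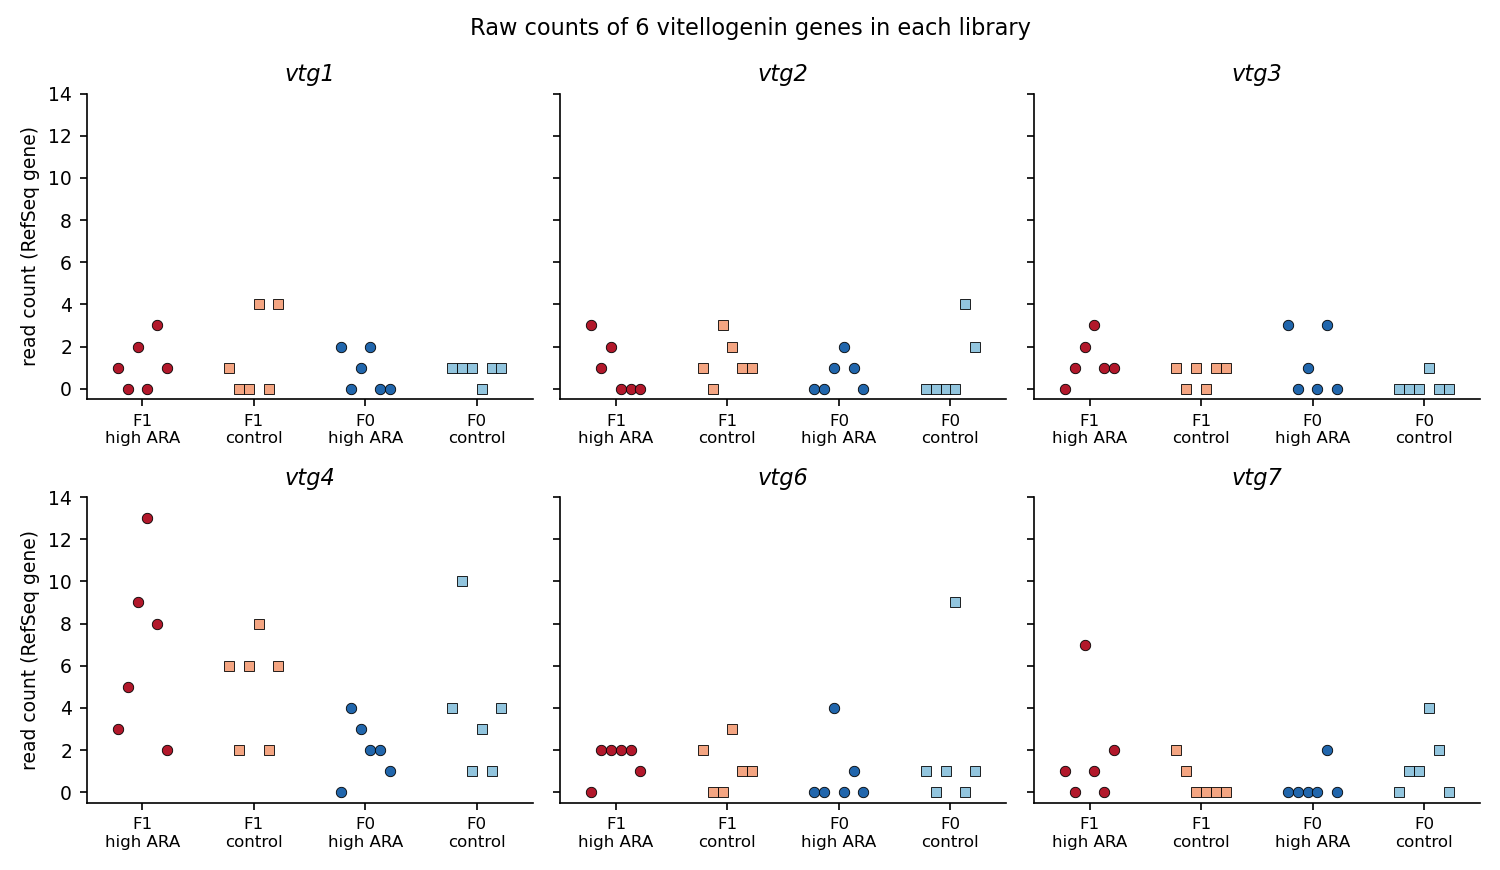
Raw RefSeq read counts of *vtg1*, *vtg2*, *vtg3*, *vtg4*, *vtg6* and *vtg7* in each of the 24 libraries, by group. The highest count is 13 reads of *vtg4*, and the other 5 genes have 0 to 4 reads in each library apart from 9 of *vtg6* and 7 of *vtg7* in 1 library each.

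Because *esr1* and vitellogenins are estrogen targets in fish liver, their levels were set against each other across the 6 libraries of each group, with 8 relations computed per annotation. Across F1 high ARA libraries *esr1* and *vtg5* had a Pearson r of 0.91 (exact permutation p = 0.0194, adjusted 0.0778) and a Spearman rho of 0.94 (exact permutation p = 0.0167, adjusted 0.0444), and r was 0.83 without the 2 libraries farthest from the median of *esr1*. Across F0 control libraries r was 0.94 (exact permutation p = 0.0167, adjusted 0.0778) and rho 0.94 (exact permutation p = 0.0167, adjusted 0.0444). Without the 2 farthest libraries, 9 and 10, r was 0.35, and on RefSeq counts it was 0.70 without them and 0.95 with them (exact permutation p = 0.00556, adjusted 0.0444). Across F0 high ARA libraries r was 0.72 (exact permutation p = 0.113, adjusted 0.15) with rho 0.94 (exact permutation p = 0.0167, adjusted 0.0444), and r was 0.43 without the 2 farthest. Across F1 control libraries the relation ran the other way but did not pass, with r of −0.80 (exact permutation p = 0.0583, adjusted 0.15). There rho was −0.71 (exact permutation p = 0.136, adjusted 0.218), and r was 0.084 without the 2 farthest. In the same group on RefSeq counts, r was −0.74 (exact permutation p = 0.0944, adjusted 0.126) and rho −0.54 (exact permutation p = 0.297, adjusted 0.474). The relation between *esr1* and the sum of the 6 sparse vitellogenins did not pass in any group (exact permutation p of r from 0.0833 to 0.657).

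**Figure D5:**
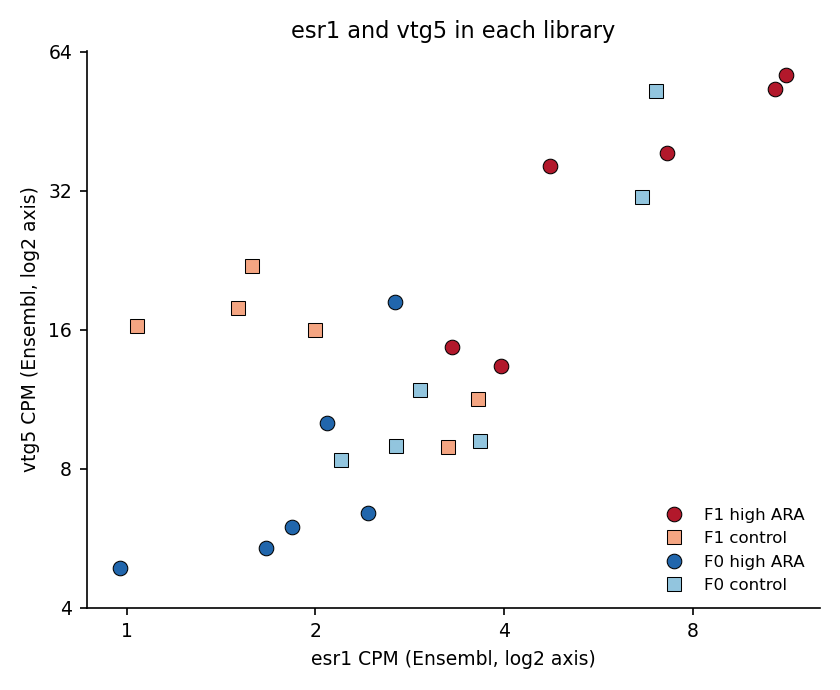
*esr1* against *vtg5* in CPM on Ensembl genes, 1 point per library, with the 4 groups marked. There are 4 F1 high ARA libraries that lie high on both axes with *vtg5* at 36.3 CPM or more, joined by F0 control libraries 9 and 10 at 31.0 and 52.6 CPM.

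The genes whose levels were most like those of *esr1*, *vtg5* and *esr2a* were listed over the 24 libraries, as a description in which the points share group and library. For *esr1* these were *pitpnbl* (r = 0.90), a phosphatidylinositol transfer protein gene, *gfra3* (0.86), a receptor gene of the GDNF family, *si:ch211-201h21.5* (0.84), *prmt5* (0.83), a protein arginine methyltransferase gene, and *si:dkey-22f5.9* (0.82). After the group means were taken out, r with *esr1* was 0.72 to 0.82 for these 5 genes, 0.67 for *esr2b* and 0.62 for *vtg5*. With the group means left in, *vtg5* ranked 36 for likeness to *esr1* with r = 0.75, and *esr2b* ranked 647 with r = 0.57. For *vtg5* they were *srm* (0.83), the spermidine synthase gene, *ddx19b* (0.79), *pitpnbl* (0.79), *polr2a* (0.79), the large subunit gene of RNA polymerase II, and *si:dkey-262k9.2* (0.79), and *esr1* ranked 28. For *esr2a* the highest values were lower, with *ywhaqb* (0.68), *si:dkey-16m19.1* (0.68), *cusr* (0.67), *arv1* (0.67) and *cdca4* (0.66), and its r with *esr1* was −0.20, or 0.20 after the group means were taken out.

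Other genes of estrogen signalling and yolk handling were read from 5 lists of pathway genes. Between F1 high ARA and F1 control no gene was called among 3 tested steroid and estrogen-related receptors, 17 coregulators of nuclear receptors, 22 genes of estrogen synthesis, inactivation and transport, and 4 large lipid transfer proteins, and the median log2 fold changes of these lists were 0.45, −0.0055, 0.15 and −0.058 beside 0.0094 over all genes. Of 7 tested genes of yolk processing and uptake, *vldlr* was lower. Over all 10902 genes tested, 1.51% were called. *vldlr*, whose product is a lipoprotein receptor that takes up vitellogenin in the ovary, averaged 2.48 ± 0.752 CPM in F1 high ARA, against 8.18 ± 4.02 CPM in F1 control (mean ± SD, 6 libraries each). The difference of −1.73 on the log2 scale (SE 0.36) gave adjusted p of 0.0270 and 0.0278 by edgeR's quasi-likelihood test, held without F1 high ARA library 13, 16 or 18 or F1 control library 8 or 9 and lost without any of the other 7 libraries, with an adjusted p of at most 0.0659. It was also lost with no filter on low counts (adjusted p 0.0569 and 0.0515). In the interaction, where 0.116% of 11192 genes were called, *vldlr* had −2.25 (adjusted p 0.0418 and 0.0383 by edgeR's quasi-likelihood test). That call held without F1 high ARA library 13 or 16, F1 control library 9 or F0 control library 8 or 12. It was lost without any of the other 19 libraries, with an adjusted p of at most 0.0872, and with no filter on low counts (0.0884 and 0.0709). No list gene was called between F0 high ARA and F0 control.

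In F1 against F0 livers of the high ARA groups, where calls were common, the coregulator genes *ncor1*, a corepressor (log2 fold change −0.50), and *crebbpa*, an acetyltransferase coactivator (−0.35), were called lower. These groups differed in their own diet as well as in generation and age. Of 22 genes of estrogen synthesis, inactivation and transport, 3 were higher and 2 lower, where 16% of all genes tested were called and 8.28% were called higher. The testosterone-forming *hsd17b3* was higher, at 321 ± 107 CPM in F1 high ARA, against 77.6 ± 22.2 CPM in F0 high ARA (log2 fold change 2.04), as were the sulfotransferase genes *sult1st1* (0.86) and *sult1st3* (0.86). The catechol methyltransferase gene *comta* (−0.42) and *cyp1a* (−0.58), a monooxygenase of estradiol and foreign compounds, were lower. Of the yolk list, *vldlr* was lower (−2.29) and the cathepsin gene *ctsla* (0.80), a lysosomal protease of the yolk list, was higher. The calls of the other 7 genes named here held in all 12 fits that left out 1 library, but *crebbpa* held only without F1 high ARA library 17 or F0 high ARA library 16 (adjusted p otherwise up to 0.0989) and *sult1st1* only without F1 high ARA library 18 or F0 high ARA library 14 (up to 0.107). With the enterocyte score in the model, *ncor1* (adjusted p 0.0580), *cyp1a* (0.0633) and *sult1st1* (0.129) were not called. The *sult1st1* call was also lost in 1 fit of all libraries (0.101), and that of *crebbpa* with library totals as the scale (0.158), with no filter on low counts (0.156) and after thinning (0.0676).

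Between F1 control and F0 control, *comta* (log2 fold change −0.47) and *cyp1a* (−0.33) were lower and *ctsla* (0.63) was higher, the only list genes called there by edgeR's quasi-likelihood test. They were 2 of 22 tested genes of estrogen synthesis, inactivation and transport and 1 of 7 of the yolk list. None was called of 4 steroid and estrogen-related receptors, 18 coregulators and 4 large lipid transfer proteins. Over all 10940 genes tested, 1.83% were called. Each call held in only 3 of 12 fits that left out 1 library. For *comta* these were the fits without F1 control library 12 or F0 control library 7 or 11, for *cyp1a* without F1 control library 12 or F0 control library 7 or 10, and for *ctsla* without F1 control library 7 or 12 or F0 control library 10. In the other fits the adjusted p was at most 0.0985 for *comta*, 0.0974 for *cyp1a* and 0.0863 for *ctsla*. The call of *ctsla* was also lost with library totals as the scale (0.102), that of *comta* after thinning (0.0565), and that of *cyp1a* with no filter (0.106) and in 1 fit of all libraries (0.139).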

How the data were processed

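Single-end reads of 24 male liver libraries were mapped untrimmed to GRCz10 with HISAT2 by the authors after quality control with FastQC 0.11.5. The authors deposited raw read counts per gene from featureCounts v1.5.0-p3, in 1 table on Ensembl release 85 and 1 on RefSeq. Per the file headers, the deposited counts ignored strand and left out reads that mapped to several places or genes, so overlapping genes and close paralogs are uncertain. No exon of the 10 genes overlapped one on the opposite strand. Of 36 count columns per table, 12 were not used here. Total counts were 5144880 to 15659321 per library on Ensembl genes, and 3 reads were taken as the limit of a count of 0.

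Symbols came first from RefSeq gene names, then from the study's supplementary gene lists and last from Ensembl gene names. The annotations were joined by exon overlap (at least 0.5 of the shorter model, best in both directions), which paired 24543 genes. Of 21323 pairs in which each gene had a symbol of its own, 16629 had the same symbol. edgeR 4.0.16 (R 4.3.3) with TMM scaling and robust quasi-likelihood fits tested genes with a mean count of 10 or more over the 12 libraries of a comparison, or over all 24 for the interaction. Benjamini-Hochberg adjusted p below 0.05 in both annotations with the same sign was a call. SEs were the log2 fold change over the root of F. Single genes were also compared with two-sided exact permutation tests over 924 assignments of log2(CPM + 0.5), 40 comparisons in all and unadjusted. Per the paper, each replicate was a pool of livers from 1 tank, and the sample titles give only group and number. The p-values thus measure the spread between pools.

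All 10 members are named, pathway genes are named when called in at least 1 comparison or the interaction (a called coregulator, and with it the count over that list between the high ARA groups, is not reported here), and the 5 most alike genes are given for *esr1*, *esr2a* and *vtg5* (Pearson correlation of log2 CPM). The gene *ncoa3*, not called here, is named because the paper reported it. The members, lists and tests were chosen with earlier results of these data known. The alternatives were other scaling (RLE, library totals), other filters, DESeq2 1.42.0 with and without a normal prior, the mean log2 CPM of enterocyte markers as a covariate, counts thinned to the smallest total, 1 fit of all libraries, a replicate block, each annotation alone, and leaving out each library. The *esr2a* reads outside the Ensembl model and the sum of the sparse vitellogenins were added after seeing the data. The fitting code was tested on simulated data. No DNA sequence was used here.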

Additional observations from a re-analysis of the deposited data

Results flagged for a closer look

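The diet difference of *esr1* differed between generations, with an interaction of 2.76 on the log2 scale (adjusted p 0.0418 and 0.0383 on Ensembl and RefSeq counts by edgeR's quasi-likelihood test), a call that held in 11 of 24 fits without 1 library. The diet was the fish's own in F0 and that of the parents in F1, and age differed too. The call was lost with the replicate number as a block. Of 40 groups of 6 libraries, 8 held a library far from the other 5. The rule's chance rate of about 1 in 20 does not hold for genes with few reads, since a gene with reads in only 1 library of a group is always marked. The count of 8 is therefore not set against that rate. *esr2a* was 13.4 CPM in F0 high ARA library 18, with the next library of its group at 9.26 CPM. On RefSeq counts, to which the rule was not applied, library 18 stood closer to the next, at 19.8 against 16.4 CPM. The other 7 rested on few reads. *vtg6* reached 1.02 CPM (9 reads) in F0 control library 10 and 0.446 CPM (4 reads) in F0 high ARA library 15. *vtg7* reached 0.701 CPM (7 reads) in F1 high ARA library 15 and 0.167 CPM (2 reads) in F0 high ARA library 17. *vtg3* reached 0.459 CPM (3 reads) in F0 high ARA library 13 and 0.113 CPM (1 read) in F0 control library 10, and *vtg2* reached 0.325 CPM (2 reads) in F0 high ARA library 16. The causes were not tested.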

How the results depend on the processing

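Of the members, 1 was called between F1 high ARA and F1 control, and 0 with no filter on low counts or with the enterocyte score, 2 with DESeq2 (with or without the prior), and 0 to 2 when 1 library was left out. Called members stayed at 0 between F0 high ARA and F0 control, at 2 for F1 against F0 of the high ARA groups and at 0 between F1 control and F0 control in every setting run. For the interaction the 1 call became 2 with DESeq2 (either form), and 0 to 1 when 1 library was left out. Whether shared replicate numbers pair F1 with F0 libraries is not given by the sample titles. Same-numbered correlations ran from −0.36 to 0.27 and 1 of 12 libraries matched its own number best. Weak correlation of liver levels cannot decide whether the numbers mark related tanks. With the replicate number as a block, the interaction called 0 members, *esr1* having 2.65 and adjusted p of 0.0721 and 0.0605, and 8 genes against 13, and no other call of a member changed. The block also ended the calls of *vldlr* in the interaction (0.0711 and 0.0605), of *sult1st1* for F1 against F0 of the high ARA groups (0.0551 and 0.0566) and of *comta* and *cyp1a* between F1 control and F0 control (larger adjusted p 0.0780 and 0.100). Directions turned for *esr2b* between F0 high ARA and F0 control (0.078) and *vtg5* between F1 control and F0 control (0.16), both without F0 control replicate 10, in ranges of −0.29 to 0.078 and −0.56 to 0.16 over all left-out libraries, and for *esr2a* on RefSeq counts between F1 control and F0 control (−0.062, and −0.045 as a mean log2 difference) and in the interaction (0.015). The *esr2a* reads outside the Ensembl model gave 0.60 between F1 high ARA and F1 control, 0.35 for F1 against F0 of the high ARA groups and −0.48 between F1 control and F0 control. Over all genes, calls between F1 high ARA and F1 control were 165, 481 with DESeq2, 469 with its prior, 270 in 1 fit of all libraries and 65 to 231 when 1 library was left out. Between F0 high ARA and F0 control they were 0, 24 with DESeq2 and 22 with its prior, for F1 against F0 of the high ARA groups 1819 and 965 with the enterocyte score, between F1 control and F0 control 200, 472 with DESeq2, 466 with its prior, 341 in 1 fit and 81 to 220 with 1 library left out, and for the interaction 13, 94 with DESeq2, 323 with its prior, 20 with the enterocyte score, 2 after thinning and 2 to 16 with 1 library left out. Over all values and settings run, 1077 kept their direction and side of the threshold, 118 no longer passed, 5 newly passed, 72 counts of calls moved by over 1.5 times and 8 turned direction. The causes were not tested. Few reads limit the 6 sparse vitellogenins, and uncounted reads of paralogs limit the whole cluster.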
